A study of Mus musculus with 4 samples.

Results

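The genes described here are 10 that make or break down cyclic AMP (cAMP) in mouse pancreatic islets, 4 adenylyl cyclases (*Adcy5*, *Adcy6*, *Adcy8* and *Adcy9*) and 6 phosphodiesterases (*Pde1c*, *Pde3b*, *Pde4b*, *Pde4d*, *Pde8b* and *Pde10a*), out of 24012 gene symbols in the table. They were chosen by name, and where a gene had several transcript entries, the entry with the highest mean over all libraries stood for it. The islets, combined from male C57bl6 mice of 3 months, spent a night at 11 mM glucose and then 2 h at 2.8 mM. After that they stayed at 2.8 mM (low glucose) or were raised to 16.8 mM (high glucose), with 2 libraries at each concentration, and no library carried a genetic change or another agent. By the series' design text and the study's methods this lasted 12 h in both groups, but by the labels it lasted 12 h at 16.8 mM and only 2 h at 2.8 mM, so a difference in time cannot be told apart from the difference in glucose if the labels are right. Nothing in the labels says that the libraries of a group came from separate animals, so p-values measure only the spread between libraries.

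Adenylyl cyclases make cAMP from ATP and sit downstream of the receptors for incretin hormones and glucagon, while phosphodiesterases hydrolyse cAMP and so end the signal. In beta cells cAMP potentiates glucose-stimulated insulin secretion through protein kinase A and the Epac proteins, and it drives transcription through CREB, the cAMP response element binding protein. Several cyclases and phosphodiesterases are regulated by calcium and calmodulin, which ties the cAMP level to the calcium signal that glucose sets off in these cells.

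Values are RPKM, read numbers divided by gene length and library depth, deposited by the authors. When RPKM was multiplied by the length of a gene from its first to its last base, exons and introns together, 80.2% to 81.6% of low genes gave a whole number of reads (within 0.1 read), against 24.0% to 25.2% with the length of the exons, so a long gene with large introns has a low RPKM for its reads. Depth recovered from these steps was 50795000 to 60700000 reads per library. It was chosen to fit the spans and reused for the exons, so the exon share had no depth fitted to it. The test covered the 16234 transcripts whose mean reached 0.1 RPKM, and their median difference was -0.125 on the log2 scale (16.8 mM minus 2.8 mM). All 8 beta cell markers examined had higher values in both 16.8 mM libraries than in both 2.8 mM libraries, and their summed RPKM was 19084 to 21323 in the 2.8 mM libraries and 38094 to 41035 in the 16.8 mM libraries. The 8 acinar markers summed to 102 and 291 RPKM in replicates 1 and 2 at 2.8 mM and to 246 and 510 RPKM at 16.8 mM, with 1 of the 8 free of overlap between the groups. Summed values of 6 alpha cell markers were 1698 to 2217 RPKM at 2.8 mM and 1538 to 2172 RPKM at 16.8 mM. Of these 6, 2 were higher and 1 lower at 16.8 mM without overlap. The 4 delta cell markers summed to 447 to 598 against 696 to 704 RPKM, and the 4 duct markers to 17.9 to 20.4 against 28.3 to 36.5 RPKM. Most of the delta sum was *Sst* (440 to 587 against 686 to 692 RPKM), the only 1 of the 4 free of overlap. Among the 4 duct markers 2 were free of overlap. Sums of pancreatic polypeptide, endothelial, leukocyte and stromal markers overlapped between the groups. In these lists 2 of 5 endothelial and 1 of 5 leukocyte markers were free of overlap, all higher at 16.8 mM. No marker examined was at 0 in all libraries. The part of these shifts in the results below was not tested. In whole islets, fewer cells of a type and less RNA per cell cannot be told apart.

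The phosphodiesterase transcripts of *Pde10a*, *Pde1c* and *Pde4b* were higher at 16.8 mM glucose, and no cyclase passed the test. Of the 7 members with a mean of at least 0.1 RPKM, limma with Benjamini-Hochberg adjustment over all transcripts tested called 3 higher and 0 lower, against a background of 29.8% of transcripts called, 8.68% higher and 21.2% lower. At an unadjusted p under 0.05 the counts were again 3 and 0, against 45.2% of all transcripts, 12.9% higher and 32.3% lower. The other 3 members, *Adcy5*, *Adcy8* and *Pde8b*, lay under the minimum. With a minimum of 0.005 RPKM all 10 members were tested and 3 were called higher and 0 lower, against 18.8% of all transcripts called, 6.03% higher and 12.7% lower. A fit to reads reconstructed from RPKM, span and depth (voom) called 5 members higher and 1 lower, against 42.6% of all transcripts called, 13.5% higher and 29.1% lower. The additional calls were *Adcy8* and *Pde8b*, higher, and *Pde4d*, lower. In that fit spans were matched to a transcript for the members only, so their reads and those of other genes were not built alike.

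**Figure D1:**
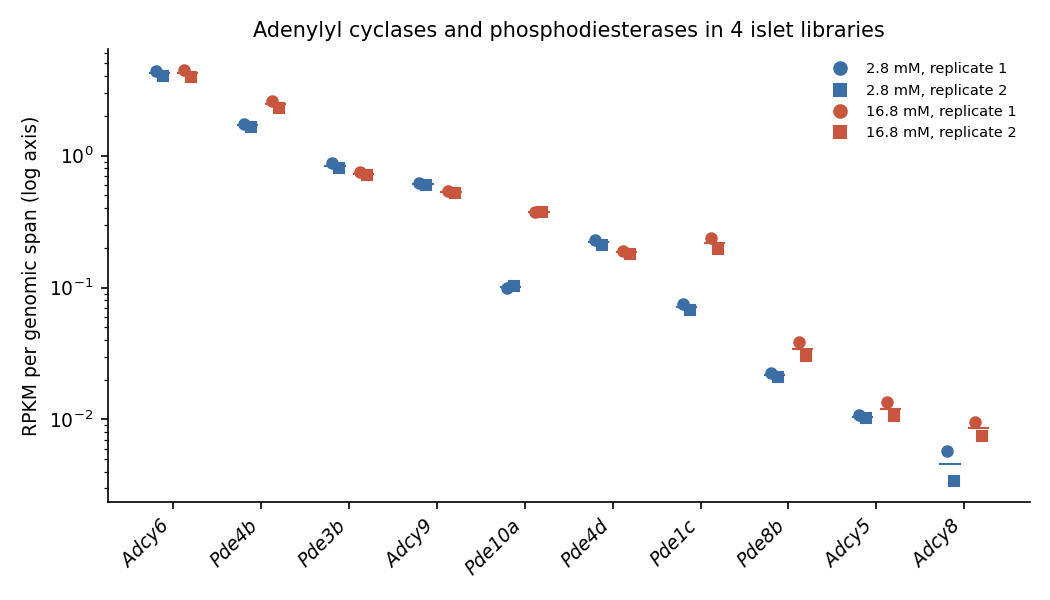
RPKM per genomic span (log axis) of the 10 genes in each of the 4 islet libraries, ordered by mean, with blue for 2.8 mM and red for 16.8 mM glucose, circles for replicate 1, squares for replicate 2 and lines for group means. The red points of *Pde10a*, at 0.375 and 0.371 RPKM, lie well above its blue points at 0.1 and 0.103 RPKM, whereas those of *Adcy6* lie between 3.98 and 4.48 RPKM in both groups.

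*Pde10a* encodes a phosphodiesterase of both cAMP and cGMP that is best known for its abundance in the striatum. It had 0.1 and 0.103 RPKM in the 2.8 mM libraries and 0.375 and 0.371 RPKM in the 16.8 mM libraries. Replicates were close and the groups lay far apart. Estimated reads were 774 and 707 against 3016 and 2496. The ratio of the means was 3.68, the largest among the 10 genes. On the log2(RPKM + 0.1) scale, which shrinks low genes, the difference was 1.23 (SE 0.07, adjusted p = 0.00446, limma). It passed the threshold with each of the 4 libraries left out in turn (adjusted p between 0.0152 and 0.0401). The gene lies on chr17:8718237-9179513 of NCBI build 37, plus strand, and the chosen entry spans 132 kb, of which 2.51% is exonic.

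*Pde1c* encodes a phosphodiesterase activated by calcium and calmodulin that hydrolyses both cAMP and cGMP. Its values were 0.0752 and 0.0674 RPKM at 2.8 mM and 0.236 and 0.196 RPKM at 16.8 mM. The groups did not overlap, and the lower of the 16.8 mM values was in replicate 2. The ratio of the means was 3.03. It rose by 0.88 on the log2 scale (SE 0.10, adjusted p = 0.0100, limma), and without replicate 2 at 16.8 mM the adjusted p was 0.0507. Its 2.8 mM mean of 0.0713 RPKM was under the minimum, so it entered this test only through the group in which it was high. With the minimum of 0.005 RPKM, where this does not arise, its log2 difference was 1.53 (SE 0.14, adjusted p = 0.0161). The gene covers chr6:56019815-56319628, minus strand, and estimated reads were 1152 and 917 against 3759 and 2612, estimates that rest on a span chosen among several transcripts.

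*Pde4b* encodes a cAMP-specific phosphodiesterase of the rolipram-sensitive family. It had 1.75 and 1.64 RPKM at 2.8 mM and 2.60 and 2.29 RPKM at 16.8 mM. Both 16.8 mM libraries were above both 2.8 mM libraries, by a smaller margin than for *Pde10a* and *Pde1c*. The ratio of the means was 1.44 and the log2 difference 0.50 (SE 0.10, adjusted p = 0.0269, limma). The call was lost with any single library left out, with adjusted p of 0.0972 without replicate 1 and 0.113 without replicate 2 at 2.8 mM, and of 0.0904 without replicate 1 and 0.0772 without replicate 2 at 16.8 mM. It was also lost with no minimum (adjusted p = 0.0506), a setting that called 4.5% of all transcripts higher and 8.99% lower. The gene covers chr4:101760148-102279864, plus strand, and the chosen entry is a short transcript of 16.1 kb with 1375 to 2546 estimated reads per library.

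Several entries of these genes share reads and so do not stand for separate measurements, but they show how far the choice of entry matters. Both entries of *Pde10a* were higher at 16.8 mM, with ratios of 2.97 and 3.68. The 6 distinct entries of *Pde1c* had ratios between 2.90 and 3.03. Among the 5 entries of *Pde4b*, 4 had ratios between 1.44 and 1.45, and the fifth, with a mean of 0.00228 RPKM, had a ratio of 2.03. That last entry had 0.0016 and 0.0014 RPKM at 2.8 mM and 0.0031 and 0.0030 RPKM at 16.8 mM.

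**Figure D2:**
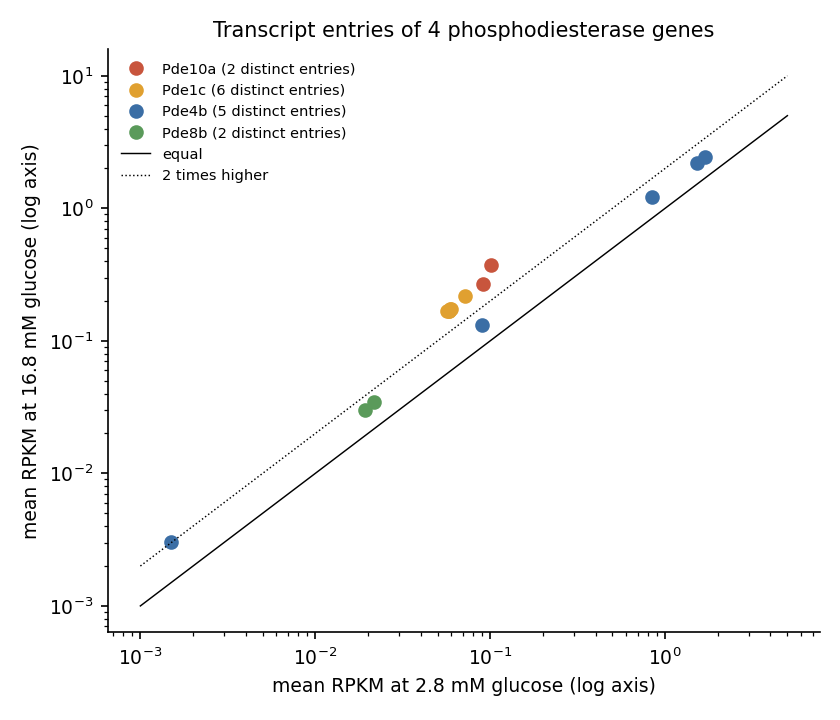
Mean RPKM at 16.8 mM (vertical, log axis) against 2.8 mM glucose (horizontal, log axis) for each distinct transcript entry of 4 phosphodiesterase genes, n = 2 libraries per mean, with a solid line of equality and a dotted line at 2 times. All entries of *Pde10a* and *Pde1c* lie above the dotted line, and *Pde8b*, with ratios of 1.57 and 1.58, lies between the lines.

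For the 3 genes called higher, *Pde10a*, *Pde1c* and *Pde4b*, the stretch before every RefSeq start site is shown, with those of the cyclases that had a start site, *Adcy9* and *Adcy5*, for comparison. Each line gives the 100 bases before a start on GRCm38.p6, a later build than that of the gene positions above, read 5′ to 3′ on the strand of the gene. Capitals mark the half-site of the cAMP response element, TGACG, or its reverse complement CGTCA.
Pde10a chr17:8801645-8801744, plus strand: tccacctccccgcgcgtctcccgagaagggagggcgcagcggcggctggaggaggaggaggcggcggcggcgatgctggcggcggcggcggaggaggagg
Pde10a chr17:8849885-8849984, plus strand: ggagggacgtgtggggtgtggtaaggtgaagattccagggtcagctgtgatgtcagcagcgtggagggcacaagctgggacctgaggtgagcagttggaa
Pde1c chr6:56362393-56362492, minus strand: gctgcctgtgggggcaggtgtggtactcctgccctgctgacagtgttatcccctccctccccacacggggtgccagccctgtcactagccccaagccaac
Pde1c chr6:56369635-56369734, minus strand: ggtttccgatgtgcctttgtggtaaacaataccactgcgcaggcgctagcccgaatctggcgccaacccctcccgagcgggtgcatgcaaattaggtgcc
Pde1c chr6:56362811-56362910, minus strand: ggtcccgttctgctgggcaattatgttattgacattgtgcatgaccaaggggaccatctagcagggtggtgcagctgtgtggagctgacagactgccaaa
Pde4b chr4:102421455-102421554, plus strand: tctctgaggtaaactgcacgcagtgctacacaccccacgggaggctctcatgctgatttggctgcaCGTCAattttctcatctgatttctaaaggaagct
Pde4b chr4:102569960-102570059, plus strand: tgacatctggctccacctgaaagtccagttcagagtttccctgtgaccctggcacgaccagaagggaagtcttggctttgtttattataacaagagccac
Pde4b chr4:102587458-102587557, plus strand: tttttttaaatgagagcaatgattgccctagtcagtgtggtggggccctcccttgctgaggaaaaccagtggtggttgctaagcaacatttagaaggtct
Pde4b chr4:102589743-102589842, plus strand: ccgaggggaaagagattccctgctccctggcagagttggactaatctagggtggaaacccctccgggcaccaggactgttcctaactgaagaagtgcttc
Adcy9 chr16:4420499-4420598, minus strand: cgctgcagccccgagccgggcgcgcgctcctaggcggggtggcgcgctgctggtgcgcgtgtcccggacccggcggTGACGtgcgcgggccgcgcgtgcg
Adcy5 chr16:35154764-35154863, plus strand: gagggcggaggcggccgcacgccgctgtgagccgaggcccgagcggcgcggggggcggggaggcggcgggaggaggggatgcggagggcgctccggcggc

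In these lines 1 of the 4 starts of *Pde4b*, the most upstream, has a half-site, 34 bases before it, and the other 3 have none. The *Pde4b* entry whose values are given spans 16.1 kb and ends at 102278466, near the gene's end at 102279864 (NCBI build 37). The most upstream start, 102421555, lies farther than 16.1 kb before the most downstream one, 102589843, so that entry does not begin there. Which of the other 3 starts belongs to it was not matched, since the builds differ. The start of *Adcy9* has a half-site 24 bases before it, and those of *Pde10a*, *Pde1c* and *Adcy5* have none. RefSeq start sites were found for 7 of the 10 genes, 17 starts in all, and not for *Adcy6*, *Adcy8* and *Pde3b*. In the wider window of the 250 bases before each start, searched on both strands, the full element TGACGTCA was in 0 of the 17, against 1.55% of 32851 promoters. Its half-site TGACG, which the full element contains, was in 2 of the 17, against 17.8% of all promoters. CACGTG, the E-box core that carbohydrate response factors bind, was in 0 of the 17, against 6.02%. A match is a description of letters and not of binding.

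The 3 remaining phosphodiesterases did not pass the test. *Pde3b*, which encodes the cGMP-inhibited enzyme that insulin and leptin act on in beta cells, had 0.877 and 0.800 RPKM at 2.8 mM and 0.749 and 0.711 RPKM at 16.8 mM. The 16.8 mM values were the lower ones with no overlap, and the log2 difference was -0.18 (SE 0.08, adjusted p = 0.157, limma), close to the median of all transcripts. The 95% interval of the difference ran from a fold of 0.765 to 1.02.

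*Pde4d*, a cAMP-specific relative of *Pde4b*, had 0.231 and 0.211 RPKM at 2.8 mM and 0.190 and 0.180 RPKM at 16.8 mM. The groups did not overlap, with the 16.8 mM values lower, and the log2 difference was -0.17 (SE 0.08, adjusted p = 0.159, limma). Its entry on chr13:109444371-110741682, plus strand, spans 1297 kb, of which 0.197% is exonic, and holds 11835 to 17506 estimated reads per library. On those reads it was called lower (log2 difference -0.26, adjusted p = 0.0296, voom). The microRNA entries *Mir1904* and *Mir582* inside it had at most 3 reads in a library.

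*Pde8b* encodes a cAMP-specific enzyme of high affinity that common phosphodiesterase inhibitors such as IBMX do not block. It had 0.0223 and 0.0211 RPKM at 2.8 mM and 0.0384 and 0.0302 RPKM at 16.8 mM, from 259 and 218 against 463 and 305 estimated reads. Both 16.8 mM libraries were higher, with a ratio of the means of 1.58. The adjusted p was 0.148 with the minimum of 0.005 RPKM (limma) and 0.00401 on reconstructed reads (voom). These fits differ in scale, minimum, weights and variance model, and which of these changes the call was not tested.

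Among the cyclases, *Adcy6*, which encodes an isoform inhibited by calcium, was the most highly expressed of the 10 genes per kilobase of span. It had 4.41 and 4.01 RPKM at 2.8 mM and 4.48 and 3.98 RPKM at 16.8 mM. The groups overlapped fully, and the spread between replicates was larger than the difference between the group means. The log2 difference was 0.01 (SE 0.11, adjusted p = 0.966, limma), with a 95% interval from a fold of 0.822 to 1.23. The gene lies on chr15:98420425-98438064, minus strand, and 34.1% of its 17.6 kb is exonic.

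*Adcy9*, a widely expressed isoform with low sensitivity to forskolin, had 0.616 and 0.599 RPKM at 2.8 mM and 0.538 and 0.520 RPKM at 16.8 mM. Replicates were close, the groups did not overlap and the 16.8 mM values were lower. Its log2 difference was -0.17 (SE 0.07, adjusted p = 0.121, limma), with a 95% interval from a fold of 0.785 to 1.01. The gene lies on chr16:4287529-4420498, minus strand.

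*Adcy8* encodes a cyclase stimulated by calcium and calmodulin. It had 0.0058 and 0.0034 RPKM at 2.8 mM and 0.0096 and 0.0075 RPKM at 16.8 mM, from 76 and 39 against 130 and 85 estimated reads over the 223 kb of its span. The 16.8 mM values were higher without overlap, with a ratio of the means of 1.86, but the replicates within a group also differed. The adjusted p was 0.383 with the minimum of 0.005 RPKM (limma) and 0.0138 on reconstructed reads (voom). Its 2.8 mM mean of 0.0046 RPKM was under that minimum, so it entered the limma fit only through the group in which it was high.

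*Adcy5*, the calcium-inhibited isoform whose human counterpart lies at a diabetes risk locus, had 0.0108 and 0.0102 RPKM at 2.8 mM and 0.0136 and 0.0106 RPKM at 16.8 mM. The groups overlapped, and 80 to 125 estimated reads lay behind each value. The log2 difference with the minimum of 0.005 RPKM was 0.14 (SE 0.29, adjusted p = 0.759, limma), with a 95% interval from a fold of 0.637 to 1.90.

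**Figure D3:**
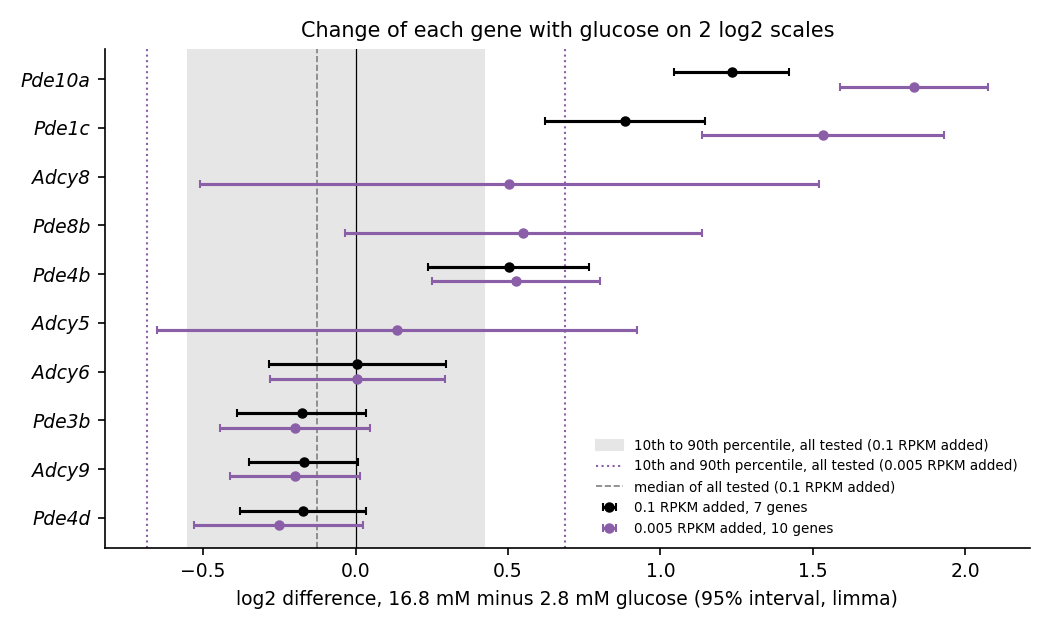
Log2 difference (16.8 mM minus 2.8 mM glucose) of each gene with its 95% interval from limma, n = 2 libraries per group, with 0.1 RPKM added (black, 7 genes) or 0.005 RPKM added (purple, 10 genes). Grey marks the 10th to 90th percentile of all transcripts tested with 0.1 RPKM added, -0.55 to 0.42, and dotted purple lines mark the same percentiles with 0.005 RPKM added, -0.68 and 0.69; *Pde10a* and *Pde1c* lie beyond both, and *Pde4b* beyond the grey band only, at 0.50 against 0.53 on the other scale.

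Across the 10 genes, the 16.8 mM values lay above the 2.8 mM values without overlap in 5 (*Pde10a*, *Pde1c*, *Pde4b*, *Pde8b* and *Adcy8*), below in 3 (*Pde3b*, *Pde4d* and *Adcy9*) and overlapped in 2 (*Adcy5* and *Adcy6*). Over the 22841 transcripts whose mean reached 0.005 RPKM, a set that holds the 10 genes, 65.2% were free of overlap, 23.2% above and 42.1% below. *Adcy8* is in this set only through its 16.8 mM values, since its 2.8 mM mean was 0.0046 RPKM.

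The order of levels in RPKM over all libraries was *Adcy6* (mean 4.22), *Pde4b* (2.07), *Pde3b* (0.784), *Adcy9* (0.568), *Pde10a* (0.237), *Pde4d* (0.203), *Pde1c* (0.144), *Pde8b* (0.0280), *Adcy5* (0.0113) and *Adcy8* (0.00658). The neighbours *Pde10a*, *Pde4d* and *Pde1c* overlapped over the 4 libraries and changed places between the groups. At 2.8 mM *Pde4d* had the highest mean of these genes, with 0.221 RPKM against 0.101 for *Pde10a* and 0.0713 for *Pde1c*. At 16.8 mM *Pde10a* led with 0.373 RPKM, ahead of *Pde1c* with 0.216 and *Pde4d* with 0.185. Levels are per kilobase of genomic span, and they depend on the entry chosen. The 5 entries of *Pde4b* had means from 0.00228 to 2.07 RPKM, and its place rests on the highest. Taken as RPM, reads over the span scaled to library depth with no division by length, *Pde4d* had the most (mean 263). Next were *Pde3b* (97.2), *Adcy9* (75.6) and *Adcy6* (74.4). Reads in exons and introns were not told apart, and the *Pde4d* entry spans 1297 kb, of which 0.197% is exonic. RPM therefore does not rank these genes by mature mRNA.

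Other genes of the pathway were read from lists of 79 genes, of which 53 were tested, with 12 higher, 7 lower and 34 not called (limma), against the 8.68% and 21.2% of all transcripts. None of the remaining cyclases and phosphodiesterases was called. Of 6 other cyclases only *Adcy4* was tested, of 10 other cAMP phosphodiesterases 5 were, and of 8 cGMP phosphodiesterases 3 were. At an unadjusted p under 0.05 the count was 0 for each of these lists, against 45.2% of all transcripts. On reconstructed reads (voom) 1 of the 6 other cyclases was higher and 1 lower, against 13.5% and 29.1% of all transcripts. In the same fit 0 of the 10 other cAMP phosphodiesterases was called, and 1 of 6 cGMP phosphodiesterases was higher.

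Among 7 G protein alpha subunits, *Gnai2*, which encodes an inhibitory subunit that lowers cyclase activity, was the only one called by limma with adjustment. At an unadjusted p under 0.05, 2 of the 7 were higher and 1 lower, against 12.9% and 32.3% of all transcripts. With reconstructed reads (voom) 2 were higher and 2 lower, against 13.5% and 29.1%. *Gnai2* had 32.7 and 31.5 RPKM at 2.8 mM and 15.85 and 14.3 RPKM at 16.8 mM. It fell by 1.09 on the log2 scale (SE 0.11, adjusted p = 0.00838, limma), and the adjusted p was 0.0511 without replicate 1 and 0.0644 without replicate 2 at 16.8 mM. *Gnas*, the stimulatory subunit, had values of 44.5 to 50.7 RPKM in all libraries (adjusted p = 0.915), and its groups overlapped. The list's median log2 difference was 0.02, against -0.125 for all transcripts.

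Of 8 tested protein kinase A subunits and inhibitors, 1 was higher and 3 lower (limma), with a median of -0.09. The counts were also 1 and 3 at an unadjusted p under 0.05, against 12.9% and 32.3% of all transcripts. They were 1 and 3 of 9 on reconstructed reads, against 13.5% and 29.1%. *Prkar1a*, a regulatory subunit that holds the kinase inactive until cAMP binds, had 16.6 and 14.5 RPKM at 2.8 mM and 41.75 and 43.0 RPKM at 16.8 mM. Its log2 difference was 1.45 (SE 0.11, adjusted p = 0.00648, limma), with an adjusted p of 0.0532 without replicate 2 at 16.8 mM. The lower genes were *Prkar1b*, *Prkar2a* and the inhibitor gene *Pkia*. *Prkar1b*, another regulatory subunit, fell by 0.72 on the log2 scale, from 0.845 and 0.900 to 0.512 and 0.470 RPKM (adjusted p = 0.0095, limma). Without replicate 2 at 2.8 mM or at 16.8 mM its adjusted p was 0.051 or 0.0578. *Prkar2a* fell by 0.35, from 0.562 and 0.554 to 0.429 and 0.406 RPKM (adjusted p = 0.0269, limma), and with any 1 of the 4 libraries left out its adjusted p was between 0.0709 and 0.15. The catalytic subunits *Prkaca* and *Prkacb* were not called (adjusted p = 0.791 and 0.643, limma).

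In the remaining cAMP effectors, 1 of 8 tested A-kinase anchoring proteins and 1 of 2 Epac proteins was higher, and none was lower (limma). *Rapgef4*, which encodes the Epac2 exchange factor of beta cells, had 0.262 and 0.246 RPKM at 2.8 mM and 0.446 and 0.478 RPKM at 16.8 mM. The groups were clear of each other, with a log2 difference of 0.67 (SE 0.07, adjusted p = 0.0100, limma). Without replicate 2 at 2.8 mM or at 16.8 mM its adjusted p was 0.0502 or 0.0594. *Akap13*, an anchoring protein, had 0.233 RPKM in both 2.8 mM libraries and 0.377 and 0.389 RPKM at 16.8 mM (log2 difference 0.54, adjusted p = 0.0121, limma), and with any library left out its adjusted p was between 0.0534 and 0.0681. The medians were -0.23 for the anchoring proteins and 0.31 for the Epac proteins. At an unadjusted p under 0.05, 1 of the 8 anchoring proteins was higher and 6 were lower, against 12.9% and 32.3% of all transcripts. On reconstructed reads 3 of 13 were higher and 7 lower, against 13.5% and 29.1% of all transcripts. For the Epac proteins the counts were 1 and 0 both ways.

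Of 8 genes of the CREB family and its coactivators, 1 was higher and 3 lower (limma), with a median of -0.24. At an unadjusted p under 0.05, as on reconstructed reads (voom), 1 was higher and 6 were lower, against the same shares of all transcripts as for the anchoring proteins. *Crem*, the CREB relative that also yields the repressor ICER, had 0.890 and 0.815 RPKM at 2.8 mM and 3.88 and 3.54 RPKM at 16.8 mM. Its 16.8 mM values were far above the others, with a ratio of the means of 4.36 and a log2 difference of 2.00 (SE 0.09, adjusted p = 0.00327, limma), and it passed with each library left out. *Crtc2*, a CREB coactivator, fell by 0.54 on the log2 scale, from 3.79 and 3.61 to 2.58 and 2.45 RPKM (adjusted p = 0.0177, limma), and *Atf1* fell by 0.38, from 1.03 and 1.01 to 0.791 and 0.727 RPKM (adjusted p = 0.0279, limma). With any library left out, neither passed, with adjusted p of 0.0673 to 0.0956 for *Crtc2* and 0.067 to 0.157 for *Atf1*. The third lower gene was *Crebbp*.

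Of 15 genes known to be induced through CREB, many of which also answer to calcium and growth factor signals, 11 were tested, 8 were higher and 0 lower (limma), with a median log2 difference of 1.37. The list was chosen with earlier results of these data known, and whether CREB drove these changes was not tested. At an unadjusted p under 0.05 the counts were 9 and 0, against 12.9% and 32.3% of all transcripts, and on reconstructed reads 10 of 12 were higher and 0 lower, against 13.5% and 29.1%. *Nr4a2*, an orphan nuclear receptor, had 0.442 and 0.389 RPKM at 2.8 mM and 4.03 and 3.46 RPKM at 16.8 mM (log2 difference 2.90, SE 0.11, adjusted p = 0.00327, limma). *Egr1*, an immediate early transcription factor, had 1.17 RPKM in both 2.8 mM libraries and 9.88 and 7.90 RPKM at 16.8 mM (log2 difference 2.82, SE 0.13, adjusted p = 0.00327, limma). Both passed with each library left out. The other 6 called were *Irs2*, *Fos*, *Sik1*, *Nr4a1*, *Junb* and *Dusp1*, with log2 differences from 1.05 to 2.46.

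**Figure D4:**
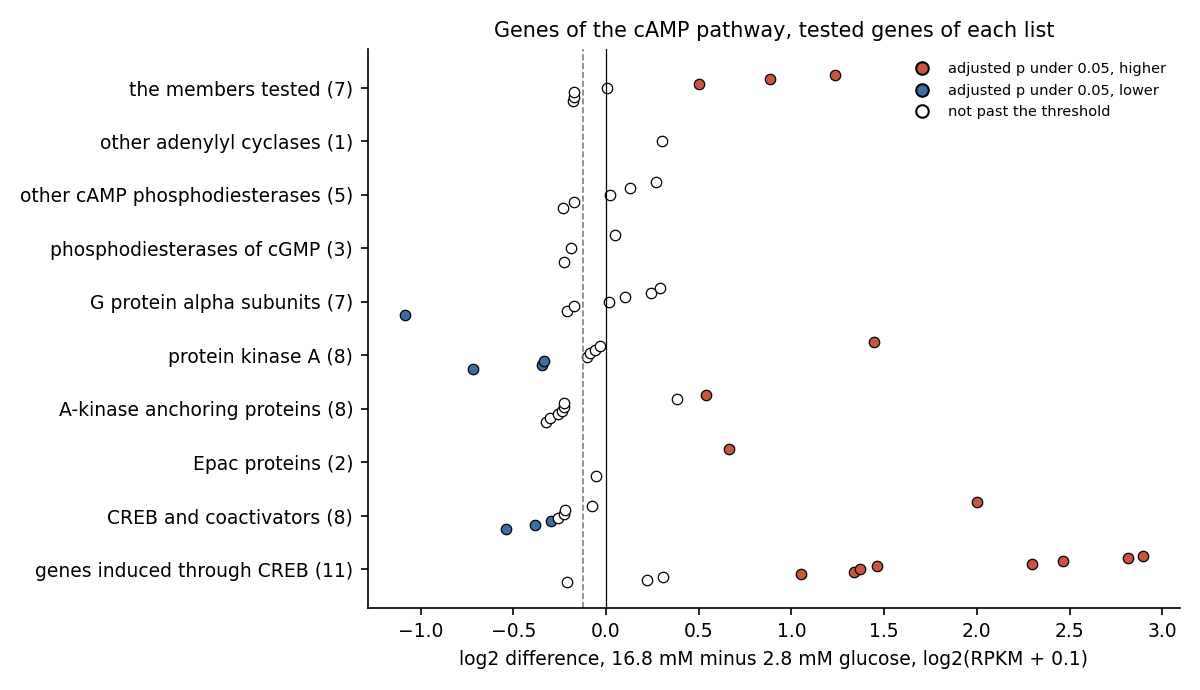
Log2 difference (16.8 mM minus 2.8 mM glucose, log2(RPKM + 0.1)) of each tested gene of the cAMP pathway, by list, with the number tested in brackets; red and blue points have an adjusted p under 0.05 (limma), white points do not, and the dashed line is the median of all transcripts, -0.125. Genes induced through CREB hold 8 red points, and the lists of remaining cyclases and phosphodiesterases hold white points only. The lists were chosen with earlier results of these data known.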

How the data were processed

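RNA-seq libraries (TruSeq v2) of whole islets were compared, with 2 per glucose concentration. RPKM values were deposited by the authors in 1 table, with rows for RefSeq transcripts and lncRNAs. The submitters' processing notes name STAR, bedtools, DESeq and mm9, and strand use is not stated. Entries of a gene with equal values entered as 1. The test was limma 3.58.1 (R 4.3.3) on log2(RPKM + 0.1), for transcripts whose mean over the libraries reached 0.1 RPKM (variance trend, Benjamini-Hochberg adjustment over all tested, threshold 0.05). Depth and reads were estimated from the steps of low values and GENCODE spans on NCBI build 37 (Python 3.11.15). The GENCODE transcript behind each member was matched after its values were seen. Other genes took the longest span of their transcripts if they had a single distinct entry, or the median span if they had several. These reads were given to voom for transcripts with a span and a mean of at least 20 reads. The fits were tested on simulated data. With 2 libraries per group an exact permutation test cannot go below 0.333, and none was used. The members and gene lists were chosen with earlier results of these data known. All members were named, with the 2 genes of lowest p in each direction from each list and any overlapping gene with at least 5% of a member's reads; other genes were named after their values were seen. Alternatives were the added amount, minimum, scaling, variance model, coding transcripts alone, voom, replicate block and each library left out; the minimum of 0.005 RPKM was added after the data were seen.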

Additional observations from a re-analysis of the deposited data

How the results depend on the processing

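Over all transcripts 4845 were called, with 2593 at a minimum of 1 RPKM, 7408 with voom on reconstructed reads and between 385 and 1498 with a library left out. Among the 10 genes 3 were called, with 1 at a minimum of 1 RPKM, 6 with voom and between 1 and 2 with a library left out. Of the pathway genes 19 were called, with 12, 39 and between 6 and 12 under the same settings. A higher minimum leaves fewer genes to test, and a library left out leaves a group with a single sample, assumed to vary like the other group. Among all calls 29.1% were higher as deposited, 41.9% after quantile normalization and 46.4% after median centring, and between 38% and 58.7% with a library left out (52.1% without replicate 1 at 2.8 mM, 58.7% without replicate 2 at 16.8 mM). Median centring put *Adcy6* at 0.12 and left *Adcy9*, *Pde3b* and *Pde4d* below 0. *Pde10a* was called under each of its alternatives, and no result changed its direction with a call on either side.

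The libraries of both groups are numbered 1 and 2, and deviations of same-numbered libraries correlated at 0.13, which does not establish pairs. In both groups the acinar sum was higher in replicate 2 (291 against 102 and 510 against 246 RPKM) and the alpha sum lower. All members but *Pde10a* were higher in replicate 1 in both groups. The SE of *Adcy6* was 0.109 without a replicate block and 0.046 with it. What same-numbered libraries share was not tested. With the replicate block 6950 of the 16234 transcripts, 3 of the 10 genes and 28 pathway genes were called. With voom and the replicate block 10057 of the 17374 transcripts tested were called (3241 higher and 6816 lower), so most transcripts passed. Under this setting 8 of the 10 genes and 50 pathway genes were called. *Adcy9* and *Pde3b* were among the added ones (adjusted p = 0.00824 and 0.00903, both lower, limma voom). Precision is limited by having 2 libraries in a group.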
